A study of Apis mellifera with 12 samples.

Results

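The 100 genes that took the largest share of the reads in the brains of 12 honey bee queens are described here. The vitellogenin gene GB49544 was left out, the share of each gene in the remaining counts was computed in each queen, and the 100 genes with the highest mean share over the 12 queens were kept out of the 15314 genes in the table. The values that chose these genes are their levels, so their high level is not a result, and no test is given of it. The choice used all 12 queens together and not the treatment groups. A share of counts depends on the length of a transcript as well as on its abundance, so the order of genes below is an order of reads and not of molecules per cell.

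All queens were adult sisters of the ligustica strain reared from a single source colony, and each brain was dissected on its own from the head and sequenced as 1 library. Treatments began when the queens were 6 days old, and all were frozen at 8 days of age. The 4 virgin queens were caged but not narcotized, the 4 mated queens flew and mated naturally, and the 4 CO2-treated queens were narcotized with CO2 for 10 minutes on day 6 and again on day 7. Developing eggs and stored semen were seen in the mated queens and in neither of the other groups. Queens are named by the number in their labels (virgin 1, 2, 4 and 6, mated 1, 4, 6 and 7, CO2-treated 1, 2, 5 and 7), and these numbers mark different animals in each group. The tests set group differences against the spread between queens, all of them sisters from this single source colony. From 1 day of age each queen lived in a nucleus colony of her own, so that spread includes differences between nucleus colonies.

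Highly counted transcripts of nervous tissue commonly include genes of translation, energy metabolism and the cytoskeleton. Fat body, hemocytes and muscle lie beside the brain in the head of a bee. Fat body cells secrete lipid carriers and storage proteins and carry many detoxifying enzymes. Hemocytes are the circulating immune cells. Cytochrome P450 enzymes oxidize, and UDP-glycosyltransferases conjugate, a wide range of small molecules.

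Between 12434733 and 20677514 reads were counted per queen. The left-out gene GB49544 took 0.153% to 2.89% of the counts in virgin queens, 13.7% to 42.7% in mated queens and 1.12% to 5.02% in CO2-treated queens. Every one of the 100 genes was counted at least 216 times in every queen. The 95% Wilson interval of a share reached at most 14.3% above its value, and that widest interval belonged to the lowest count. Such intervals cover counting error only, and the spread between queens was far larger. The genes are listed under their honey bee identifiers, and 23 of the 100 also have the name of a Drosophila ortholog. These names come from the study's lists of genes that differed in these same libraries, and 30 of the 100 genes are on such a list, so having a name is not independent of having differed. The named genes held 5.54% of the counts and the 77 without a name held 17.7%. A RefSeq symbol was found for 10 genes, of which 2 were more than a locus number: CSP3 for GB52324 and EF1a-F2 for GB41358.

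Virgin queens 1 and 2 stood apart from the other 10 queens, and this pattern was seen in the values and was not part of the design. The number of the 100 genes that were also among the 100 highest of the queen's own library was 59 in virgin queen 1 and 58 in virgin queen 2, against 72 to 85 in the others. The first principal component of the 100 genes held 80.7% of their variance, and it placed virgin queens 1 and 2 at -21.7 and -20.7 while the other queens lay between -3.09 and 8.60. In CPM (counts in 1e+06 counts of a library) normalized by TMM, a method that scales libraries on the bulk of their genes, 38 of the 100 genes were lower in both of these queens than in all 10 others, against 5.53% of all genes tested. More than 4-fold lower (log2 CPM, prior count 2 here and for the other 2 counts) were 15 of the 100, against 0.399% of all genes tested. Higher in both than in all others were 10 of the 100, against 5.48% of all genes tested. On the scale of plain shares the corresponding numbers were 35, 14 and 16, against 3.98%, 0.430% and 11.7% of all genes. The mean that chose the genes rests mostly on the 10 other queens, so it can admit a gene that is low in these 2. These counts are therefore in part set by the choice and are given as a description. Genes ranked just below the 100 shared part of this pattern. Of the next 100 by rank, 25 were lower in normalized CPM, 2 more than 4-fold lower and 3 higher. The main counts and fold changes that rest on the virgin queens are therefore also given without these 2 libraries. Sample titles of virgin queen 1, mated queen 1 and CO2-treated queens 1 and 2 carry the suffix br, and its meaning is not given.

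The 100 genes are 0.653% of the genes in the table and held on average 23.2% of the counts. The 10 highest held 7.15%, the 50 highest 16.8%, the 200 highest 31.3% and the 1000 highest 56.9%, and 691 genes were needed to reach 50%. Counts were thus spread over many genes, with none of the 100 above a mean share of 1.14%. The border of the group was flat. The last members were GB50482, GB55451 and GB40157 with mean shares of 0.110%, 0.109% and 0.109%, and the first genes outside were GB48366, GB44311 and GB51956 with 0.108% each. When virgin queens 1 and 2 were left out and the genes were chosen again, 94 of the 100 were kept. Leaving out any single queen kept between 95 and 100.

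**Figure D1:**
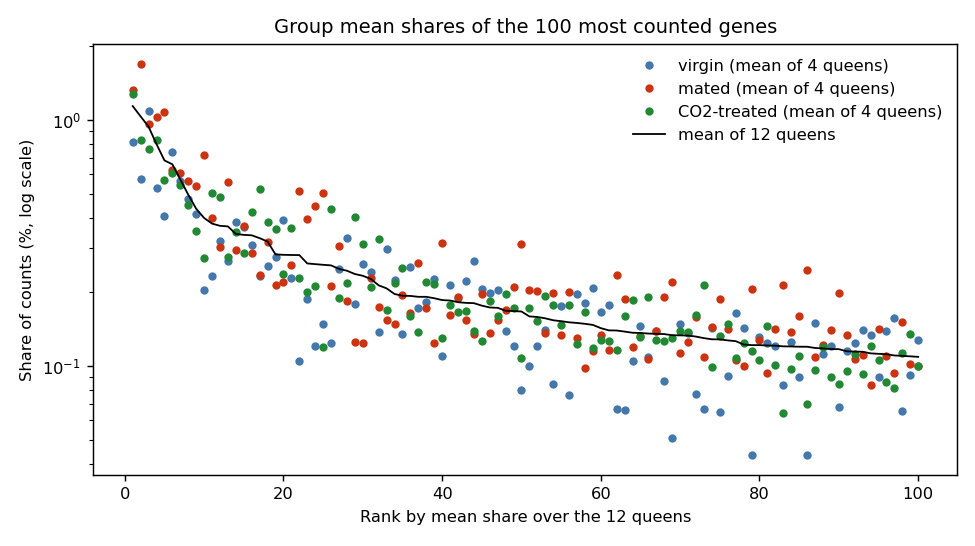
Mean share of counts (%, log scale) of each of the 100 genes in virgin, mated and CO2-treated queens (points, 4 queens each) against the rank by the mean over 12 queens (line). The mean falls from 1.14% at the first gene to 0.109% at the last, and the group means scatter around it by up to several fold.

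The highest gene by mean share was GB43571, which has no ortholog name here. It took 0.0102%, 0.0176%, 1.55% and 1.68% of the counts in virgin queens 1, 2, 4 and 6. In mated queens 1, 4, 6 and 7 it took 0.970%, 1.67%, 0.861% and 1.80%, and in CO2-treated queens 1, 2, 5 and 7 it took 0.727%, 1.69%, 1.195% and 1.48%. It was among the 100 highest genes in 10 of the 12 queens, and its lowest rank was 2238, in a virgin queen. Its mated over virgin log2 fold change was 0.90 (SE 1.15, adjusted p = 0.726, edgeR's quasi-likelihood test with Benjamini-Hochberg adjustment over 13038 genes), and it was -0.09 without virgin queens 1 and 2 (adjusted p = 0.977).

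The third gene, GB43276, behaved otherwise. Its shares were 1.60%, 1.28%, 0.889% and 0.582% in virgin queens 1, 2, 4 and 6, 1.17%, 0.858%, 0.995% and 0.842% in mated queens 1, 4, 6 and 7, and 1.05%, 0.664%, 0.598% and 0.735% in CO2-treated queens 1, 2, 5 and 7. It was among the 9 highest genes of every queen. GB40866, GB52212, GB50226 and GB40759, the other unnamed genes of the first 10 that were steady, had mean shares of 0.660%, 0.573%, 0.496% and 0.435%. None of these 4 left the 22 highest genes of any queen. GB53578, at rank 5, was at 0.0233% and 0.0238% in virgin queens 1 and 2 and between 0.241% and 1.43% in the other queens.

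Among genes of lipid transport and metabolism, 4 of the 6 named genes of that list in the table were among the 100. RfaBp (GB54507) encodes the precursor of the apolipophorins, the lipid carriers of the hemolymph, and it ranked second. Its shares were 0.601%, 0.295%, 0.836% and 0.577% in virgin queens 1, 2, 4 and 6 and 1.14%, 1.59%, 2.16% and 1.90% in mated queens 1, 4, 6 and 7. They were 0.714%, 0.725%, 0.949% and 0.915% in CO2-treated queens 1, 2, 5 and 7. All mated queens lay above all others, and RfaBp was the highest of the 100 genes in mated queens as a group.

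Normalized levels of RfaBp were 17060 ± 5424 CPM in mated queens, 4789 ± 2041 CPM in virgin queens and 7036 ± 1362 CPM in CO2-treated queens (mean ± SD, n = 4 queens each). The mated over virgin log2 fold change was 1.83 (SE 0.45), with an adjusted p of 0.0717 in edgeR's quasi-likelihood test, and it was 1.47 with an adjusted p of 0.367 without virgin queens 1 and 2. The mated over CO2-treated log2 fold change was 1.28 (SE 0.44, adjusted p = 0.226, edgeR). Neither passed the threshold of 0.05. RfaBp is itself 1 of 4 fat body markers, and the summed level of that list was 3135 to 9050 per 1e+06 counts in virgin queens, 12200 to 25980 in mated queens and 7613 to 10580 in CO2-treated queens. No marker of the list was at 0 in a queen. Fewer cells of a type and less RNA per cell cannot be told apart in such libraries, and the part of fat body in the shares was not tested.

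Aldh (GB49240), an aldehyde dehydrogenase, was at 0.0214% and 0.0271% in virgin queens 1 and 2 and at 0.348% and 0.414% in virgin queens 4 and 6. Its shares were 0.418%, 0.977%, 0.627% and 0.861% in mated queens 1, 4, 6 and 7 and 0.167%, 0.393%, 0.120% and 0.415% in CO2-treated queens 1, 2, 5 and 7. By share the lowest mated queen lay just above the highest virgin and CO2-treated queens, and in normalized CPM the groups overlapped. CG6178 (GB51729), an acyl-CoA ligase, went from 0.00292% and 0.00344% in virgin queens 1 and 2 to between 0.114% and 0.571% in the other 10. CG9009 (GB40077), of the same enzyme class, was at 0.0210% and 0.0179% in virgin queens 1 and 2 and between 0.0632% and 0.480% elsewhere. The mated over virgin log2 fold changes of Aldh, CG6178 and CG9009 were 2.04, 2.08 and 2.05, with adjusted p of 0.280, 0.373 and 0.197 in edgeR's quasi-likelihood test. With these 2 libraries left out they were 1.12, 1.10 and 1.24 (adjusted p = 0.668, 0.604 and 0.668). No gene of the 4 passed the threshold, whereas 2 of the 6 named genes of the list did, both higher in mated queens, against 0.951% of all genes. Names come from lists of genes that differed in these same libraries, so nothing is read from the 2 of 6.

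Enzymes of detoxification were represented by 3 of the 16 named cytochrome P450 and UDP-glycosyltransferase genes of the table. Cyp6a13 (GB49876), a cytochrome P450, had rank 4. It took 0.00575%, 0.0137%, 0.740% and 1.36% of the counts in virgin queens 1, 2, 4 and 6 and between 0.483% and 1.45% in the 8 mated and CO2-treated queens. In virgin queens 1 and 2 it was counted 869 and 2021 times, so its low level there was well above the limit of detection. The mated and the CO2-treated queens overlapped with virgin queens 4 and 6.

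Ugt86Dd (GB54460), a UDP-glycosyltransferase, was at 0.00143% and 0.00241% in virgin queens 1 and 2, at 0.0821% and 0.179% in virgin queens 4 and 6, and between 0.0741% and 0.266% in the other queens. It reached rank 27 in its best queen and was at rank 7585 in its worst, the widest range of ranks among the 100. CG17323 (GB44058), in Drosophila also a UDP-glycosyltransferase but outside the keyword list, was at 0.0137% and 0.0104% in virgin queens 1 and 2 and between 0.0783% and 0.285% elsewhere.

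Cyp6g2 (GB47279), also a cytochrome P450, had a further difference. Its shares were 0.00483%, 0.00689%, 0.0549% and 0.106% in virgin queens 1, 2, 4 and 6, 0.182%, 0.236%, 0.252% and 0.310% in mated queens 1, 4, 6 and 7, and 0.0226%, 0.0660%, 0.1003% and 0.0915% in CO2-treated queens 1, 2, 5 and 7. Every mated queen was above every other queen, and the gene was among the 100 highest in 4 of the 12 queens. Its mated over virgin log2 fold change was 2.69 (SE 0.87, adjusted p = 0.157) and its mated over CO2-treated log2 fold change was 2.01 (SE 0.85, adjusted p = 0.322, both by edgeR's quasi-likelihood test). The fit without virgin queens 1 and 2 gave 1.77 (adjusted p = 0.422) and 2.01 (adjusted p = 0.0758). It therefore did not pass the threshold in either comparison. Of the 16 named genes of the list, 3 passed it against virgin queens and 1 against CO2-treated queens, each higher in mated queens. Over all genes 0.951% and 0.522% passed in that direction. The named genes were listed because they differed in these same libraries, so nothing is read from these counts.

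A single chemosensory protein gene was among the 100, out of 7 named odorant binding and chemosensory protein genes in the table. PebIII (GB52324, RefSeq symbol CSP3) belongs to the chemosensory proteins, small soluble proteins that bind hydrophobic ligands. Its shares were 0.113%, 0.119%, 0.120% and 0.237% in virgin queens 1, 2, 4 and 6 and 0.0964%, 0.156%, 0.142% and 0.0824% in CO2-treated queens 1, 2, 5 and 7. In mated queens 1, 4, 6 and 7 they were 0.401%, 0.607%, 0.662% and 0.351%. The mated queens were all above the rest, and virgin queens 1 and 2 were not unusual for this gene.

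The translation factor Ef1alpha100E (GB41358, RefSeq symbol EF1a-F2), an elongation factor that brings aminoacyl-tRNA to the ribosome, ranked 37. It took 0.132%, 0.121%, 0.192% and 0.243% of the counts in virgin queens 1, 2, 4 and 6, 0.181%, 0.307%, 0.331% and 0.232% in mated queens 1, 4, 6 and 7, and 0.119%, 0.164%, 0.128% and 0.139% in CO2-treated queens 1, 2, 5 and 7. It was among the 100 highest of all 12 queens. Its mated over CO2-treated log2 fold change was 1.18 (SE 0.36, adjusted p = 0.186, edgeR), with no overlap between these groups. No ribosomal protein, ion pump or synapse gene had a name in the table, and none of the 2 oxidative phosphorylation, 4 cytoskeleton, 1 chaperone, 2 glycolysis, 2 royal jelly and 5 photoreceptor genes with a name was among the 100. Since only listed genes carry a name, these absences say nothing about the 77 genes without one.

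The muscle gene sls (GB47977), which encodes the titin-like proteins of the sarcomere, was the only one of 9 named muscle genes among the 100. It was at 0.0842%, 0.0540%, 0.0920% and 0.189% in virgin queens 1, 2, 4 and 6, at 0.0738%, 0.620%, 0.993% and 0.367% in mated queens 1, 4, 6 and 7, and at 0.146%, 0.580%, 0.130% and 0.0540% in CO2-treated queens 1, 2, 5 and 7. High and low queens occurred in the mated and in the CO2-treated group alike. The summed level of the 4 muscle markers matched by identifier, sls included, ranged from 1015 to 4076 per 1e+06 counts in virgin queens, from 1122 to 14440 in mated queens and from 950 to 9649 in CO2-treated queens, and its part in the level of sls was not tested. The mated over virgin log2 fold change of sls was 2.58 (SE 0.85, adjusted p = 0.164, edgeR), and 2.09 without virgin queens 1 and 2 (adjusted p = 0.664). The unnamed gene GB51653 had a like pattern, with 0.0381% in mated queen 1 and 0.331% in mated queen 6.

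Genes of hemocytes were present. Hml (GB50121) encodes hemolectin, a clotting protein of hemocytes, and was at 0.0407%, 0.0432%, 0.0655% and 0.154% in virgin queens 1, 2, 4 and 6. It was between 0.0954% and 0.253% in mated queens and between 0.0821% and 0.363% in CO2-treated queens. GB50508 and GB48687 share the ortholog CG6124, which in Drosophila encodes the phagocytic receptor eater of hemocytes. GB50508 was at 0.0182%, 0.0172%, 0.0707% and 0.0979% in virgin queens 1, 2, 4 and 6 and at 0.116%, 0.242%, 0.272% and 0.244% in mated queens 1, 4, 6 and 7. Mated and virgin queens did not overlap for either of the pair, and CO2-treated queens, at 0.0657% to 0.224% for GB50508, overlapped with both groups.

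The mated over virgin log2 fold changes of GB50508 and GB48687 were 2.33 and 2.47, with adjusted p of 0.113 and 0.111 in edgeR's quasi-likelihood test. They were 1.57 and 1.67 without virgin queens 1 and 2 (adjusted p = 0.496 and 0.449). With 1 shared ortholog, reads may have been split between the pair by the counting, which was not tested. The summed level of the hemocyte markers Hml and srp was 415 to 1582 per 1e+06 counts in virgin queens, 1002 to 2596 in mated queens and 881 to 3709 in CO2-treated queens. The part of hemocytes in these shares was not tested.

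The other named genes were CG13214 (GB43112), CG32250 (GB48961), the carboxylesterase CG6414 (GB52052), the serine protease Tequila (GB50481), the peroxidase Pxd (GB49688), CG40500 (GB53830), nahoda (GB51174), CG11314 (GB41545) and CG6910 (GB55515), an inositol oxygenase. CG6414 had one of the widest ranges, from 0.00317% and 0.00252% in virgin queens 1 and 2 to between 0.0534% and 0.408% elsewhere. CG32250 was at 0.0127% and 0.0104% in these queens and between 0.0675% and 0.417% in the others.

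**Figure D2:**
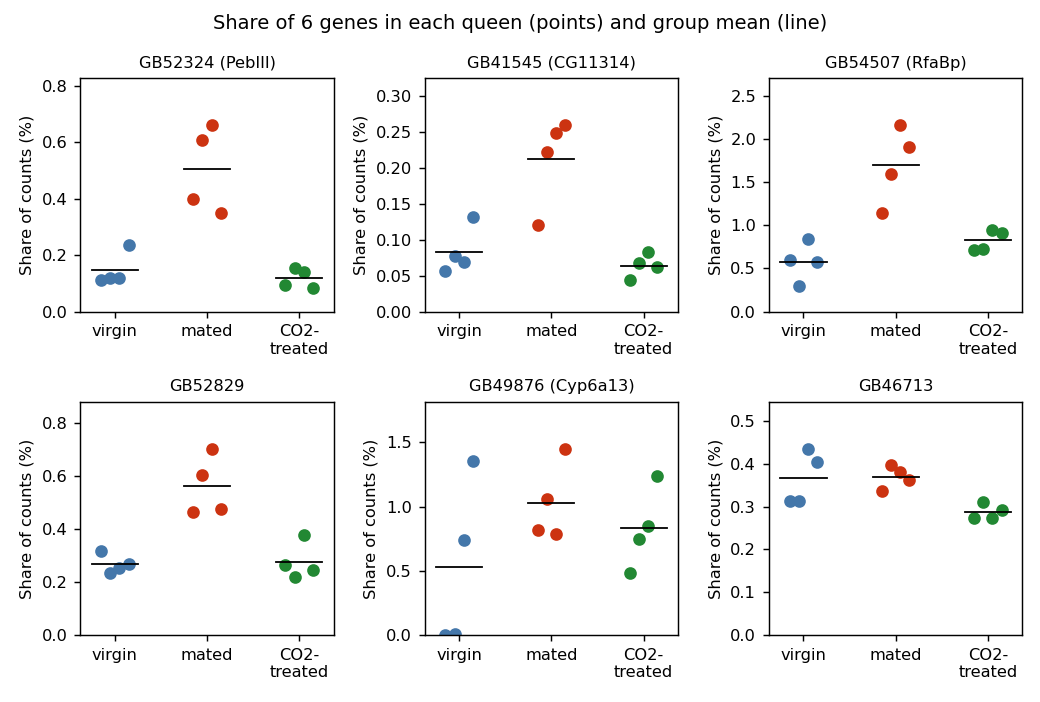
Share of counts (%) of 6 of the 100 genes in each queen, with a point for each queen and a line for the mean of the 4 queens of a group. PebIII, RfaBp and GB52829 are higher in all mated queens than in any other queen, Cyp6a13 is near 0 in virgin queens 1 and 2 alone, and GB46713 stays between 0.273% and 0.434% in all 12.

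In the comparison of mated with virgin queens, 1 of the 100 genes passed an adjusted p of 0.05 in edgeR's quasi-likelihood test, where 1.20% of all genes tested did. It was PebIII, higher in mated queens, where 0.951% of all genes passed in that direction. Its level was 5077 ± 1850 CPM in mated queens and 1234 ± 628 CPM in virgin queens (n = 4 each), with a log2 fold change of 2.04 (SE 0.42, adjusted p = 0.0351). This call was close to the threshold. It held when mated queen 1, virgin queen 6 or CO2-treated queen 1 was left out (adjusted p = 0.0266, 0.0152 and 0.0481) and was lost without any single one of the other 9 queens (adjusted p from 0.0517 to 0.129), with log2 fold changes from 1.80 to 2.46 over the 12 fits. Without virgin queens 1 and 2 the log2 fold change was 1.67 and the adjusted p was 0.341, and none of the 100 genes passed. Only 2 of all 12907 genes tested passed in that fit, so the loss was not particular to the 100.

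By adjusted p in this test, the share of the 100 genes that passed between mated and virgin queens was thus near that of all genes. This was not so in every test. The tagwise exact test passed 12 of the 100 and 505 of all genes, DESeq2 15 and 640, and the common-dispersion exact test 26 and 829. In these tests the share of the 100 was above that of all genes. Scaling by total counts passed 13 and 4398, so there the share of the 100 was below that of all genes. The 100 genes were chosen on a mean that includes the mated queens, which can admit a gene through its height in 1 group. With the lowest mean share among the 100 taken as the border, 60 of them were at or above it in every group, 29 were under it in 1 group and 11 in 2 groups. Of these 11, 5 (CG6414, CG11314, Cyp6g2, GB51653 and GB50970) reached it in mated queens alone, 4 in virgin queens alone and 2 in CO2-treated queens alone. Counts of genes high in mated queens are therefore in part set by the choice and are given as a description. With an unadjusted p under 0.05 there were 20 of the 100, against 15.9% of all genes, and all 20 were higher in mated queens, against 8.97% of all genes. No overlap between the 4 mated and 4 virgin queens was found for 12 of the 100, against 5.88% of all genes. Of these, 11 were higher in mated queens, against 3.40% of all genes. The unnamed gene GB40976 was the exception, with 0.205%, 0.309%, 0.190% and 0.196% in virgin queens 1, 2, 4 and 6 and 0.120% to 0.134% in mated queens. With virgin queens 1 and 2 left out, 14 of the 100 had an unadjusted p under 0.05 against 8.27% of all genes, and 20 had no overlap with the 2 remaining virgin queens, against 12.6%. Genes ranked just below the 100 gave similar numbers, with 3 of the next 100 past the adjusted threshold and 11 without overlap.

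How many of the 100 genes were higher in mated queens depended on the scaling. With TMM 69 had a positive mated over virgin log2 fold change, against 43.3% of all genes, and their median was 0.39, against -0.08 over all genes. Scaled by total counts 36 were positive, with a median of -0.35 against -0.79 over all genes. Scaled by total counts without GB49544 56 were positive, with a median of 0.11 against -0.35. The median of the 100 genes was therefore above that of all genes under each of the 3 scalings, and its sign changed. The next 100 genes by rank had similar medians of 0.35, -0.38 and 0.08 under these scalings. Without virgin queens 1 and 2, 68 of the 100 genes were positive with TMM and their median was 0.25 against -0.01 over all genes.

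In the comparison of mated with CO2-treated queens, 2 of the 100 genes passed the adjusted threshold, where 0.660% of all genes did, and both were higher in mated queens, where 0.522% of all genes were. CG11314, 1 of the 2, is among the 100 through the mated queens alone. PebIII was at 1022 ± 351 CPM in CO2-treated queens, which gave a log2 fold change of 2.31 (SE 0.43, adjusted p = 0.0260, edgeR). CG11314 (GB41545) took 0.120%, 0.222%, 0.248% and 0.259% of the counts in mated queens 1, 4, 6 and 7 and 0.0443%, 0.0673%, 0.0824% and 0.0619% in CO2-treated queens 1, 2, 5 and 7. These groups did not overlap, and virgin queens lay at 0.0562%, 0.0769%, 0.0692% and 0.132%. The level of CG11314 was 2149 ± 769 CPM in mated and 549 ± 166 CPM in CO2-treated queens (n = 4 each), with a log2 fold change of 1.97 (SE 0.41, adjusted p = 0.04997, edgeR).

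Both calls against CO2-treated queens were lost when single queens were left out. That of PebIII was lost without any one of the 4 CO2-treated queens or of mated queens 4, 6 and 7 (adjusted p from 0.0624 to 0.120) and held without mated queen 1 or any one virgin queen (0.0130 to 0.0405). That of CG11314 held without mated queen 1, virgin queen 1 or virgin queen 6 (adjusted p = 0.0180, 0.0425 and 0.0228) and was lost without any one of the other 9 (0.0674 to 0.178). Their log2 fold changes stayed between 2.06 and 2.49 and between 1.79 and 2.15. Without virgin queens 1 and 2 together both genes passed, with adjusted p of 0.0240 and 0.0381, where 120 of all 12907 genes tested passed. The mated over virgin log2 fold change of CG11314 was 1.63 (adjusted p = 0.0764, edgeR).

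An unadjusted p under 0.05 was found for 13 of the 100 genes in mated against CO2-treated queens, against 13.8% of all genes, and all 13 were higher in mated queens, against 8.38% of all genes. No overlap was found for 15 of the 100, against 10.8%, and all 15 were higher in mated queens, against 5.48%. With TMM 71 had a positive log2 fold change, against 47.1% of all genes, and the median was 0.30 against -0.03. Scaled by total counts 28 were positive, with a median of -0.32 against -0.67, and scaled by total counts without GB49544 56 were positive, with a median of 0.08 against -0.25. The sign of the median again depended on the scaling. For the next 100 genes by rank the medians were 0.38, -0.30 and 0.15. In the fit without virgin queens 1 and 2, an unadjusted p under 0.05 was found for 26 of the 100, against 16.1% of all genes.

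Every mated queen was above every virgin and every CO2-treated queen for 5 of the 100 genes, against 1.60% of all genes tested. These were RfaBp, PebIII, Cyp6g2 and the unnamed genes GB52829 and GB48505. Cyp6g2 is among the 100 only through its height in mated queens. GB52829 took 0.316%, 0.234%, 0.253% and 0.268% of the counts in virgin queens 1, 2, 4 and 6, 0.466%, 0.602%, 0.702% and 0.477% in mated queens 1, 4, 6 and 7, and 0.265%, 0.218%, 0.379% and 0.246% in CO2-treated queens 1, 2, 5 and 7. The ratio of GB48505 to GB52829 stayed between 0.682 and 0.735 in all 12 queens. Their mated over virgin log2 fold changes were 1.36 and 1.38, with adjusted p of 0.0674 and 0.0550 in edgeR's quasi-likelihood test, and 1.29 and 1.32 without virgin queens 1 and 2 (adjusted p = 0.348 and 0.321). The 2 comparisons share the mated queens, so a gene that is high in mated queens enters each of them.

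In the comparison of CO2-treated with virgin queens, none of the 100 genes passed the adjusted threshold in edgeR's quasi-likelihood test, where 0.0153% of all genes did. At an unadjusted p under 0.05 there were 5, against 5.81% of all genes, and 3 had no overlap between the groups, against 4.44%. DESeq2 and the exact test with tagwise dispersions also gave 0, where 20 and 18 of all genes passed. The exact test with a common dispersion gave 4, where 151 of all genes passed. A positive log2 fold change was found for 52 of the 100, against 47.5% of all genes, with a median of 0.09 against -0.02. This turned without virgin queens 1 and 2, with 45 of the 100 positive against 50.2% of all genes and a median of -0.03 against 0.0015. There were then 3 with an unadjusted p under 0.05, against 3.32%, and 11 without overlap, against 12.5%. The lowest unadjusted p belonged to nahoda, with 0.0483%, 0.0227%, 0.0856% and 0.110% in virgin queens 1, 2, 4 and 6 and 0.138%, 0.140%, 0.407% and 0.167% in CO2-treated queens 1, 2, 5 and 7. All CO2-treated queens were above all virgin queens, and the log2 fold change was 1.70 (SE 0.54, adjusted p = 0.832, edgeR). Without virgin queens 1 and 2 it was 1.09 (adjusted p = 0.9997).

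A test of any difference among the 3 groups passed for 2 of the 100 genes, PebIII (adjusted p = 0.0154) and CG11314 (adjusted p = 0.0375), where 1.14% of all genes passed in edgeR's quasi-likelihood F test. Without virgin queens 1 and 2 it passed for 1. The share over all genes in that fit is not given, so nothing is read from it.

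The summed share of the 100 genes was 18.6%, 16.3%, 22.7% and 24.0% in virgin queens 1, 2, 4 and 6. It was 23.3%, 29.3%, 25.3% and 27.5% in mated queens 1, 4, 6 and 7, and 20.0%, 23.2%, 24.97% and 23.7% in CO2-treated queens 1, 2, 5 and 7. The medians were 20.6%, 26.4% and 23.5%, and the groups overlapped. When GB49544 was kept in the total, the medians were 20.3%, 19.3% and 22.5%, which placed mated queens lowest. With the genes chosen again without virgin queens 1 and 2, the median of the other 2 virgin queens was 23.5%, against 26.8% in mated and 23.7% in CO2-treated queens.

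**Figure D3:**
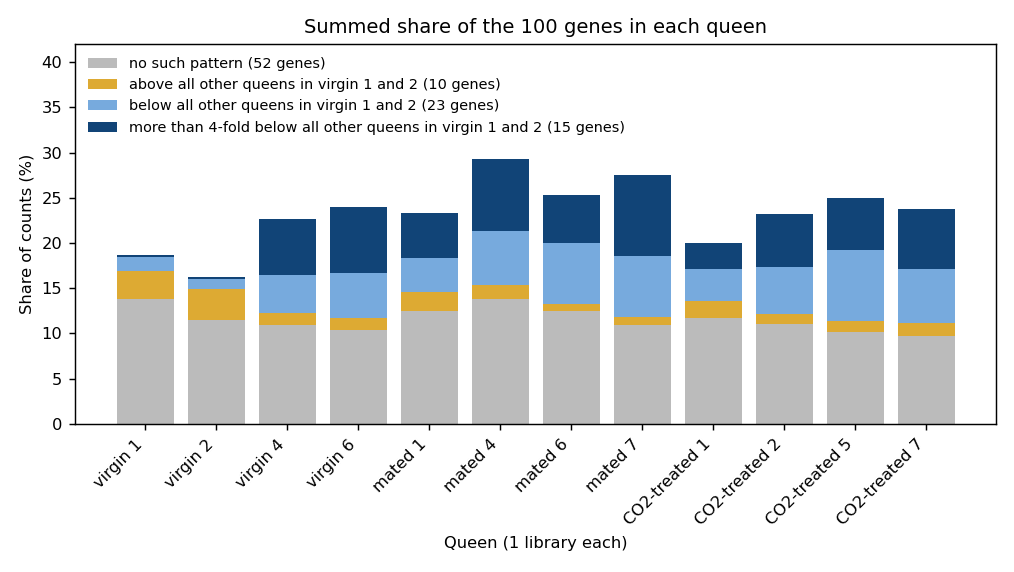
Summed share of counts (%) of the 100 genes in each queen, stacked by how virgin queens 1 and 2 compare with the other 10 on the scale of TMM-normalized CPM. The 15 genes more than 4-fold low in virgin queens 1 and 2 make up 0.154% and 0.220% of the counts there and 2.86% to 8.997% in the other queens, while the 52 genes with no such pattern hold 9.67% to 13.8% in all 12.

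Membership differed between the groups. When the 100 highest genes were taken within each group, 63 were shared by all 3, and all of these 63 were among the 100. Virgin and mated queens shared 70, virgin and CO2-treated queens 77, and mated and CO2-treated queens 79. In the list of 1 group alone were 16 genes of virgin, 14 of mated and 7 of CO2-treated queens. Without virgin queens 1 and 2 the number shared by all 3 groups was 72, and leaving out any single queen gave 55 to 68. The border was flat and queens of the same group differed, so the part of the treatments in this was not tested. Over single queens, 22 of the 100 genes were among the 100 highest of all 12 queens, and 18 were so in at most 6 queens. Among the 22 were RfaBp, Ef1alpha100E, GB43276, GB40866, GB52212, GB50226 and GB46713.

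The highest group mean was found in mated queens for 43 of the 100 genes, in virgin queens for 34 and in CO2-treated queens for 23. The highest and the lowest group mean of normalized CPM were within 1.5-fold of each other for 36 of the 100, against 58.5% of all genes tested. They were within 2-fold for 65, against 81.0%, and within 4-fold for 91, against 95.4%. These numbers were 52, 77 and 97, against 60.4%, 81.5% and 95.3%, when virgin queens 1 and 2 were left out. Since genes high in 1 group can enter through that group, the choice itself favours unequal group means, and nothing is read from this difference.

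The spread between queens of the same group was measured as the pooled within-group SD of log2 CPM. Its median over the 100 genes was 0.56, against 0.43 over the next 100 by rank and 0.44 over all genes tested. An SD over 1 was found for 28 of the 100, against 7.01% of all genes, and an SD under 0.4 for 27, against 42.5% of all genes. A choice on the mean can admit a gene through a few very high queens, so this difference is in part set by the choice. The difference shrank without virgin queens 1 and 2. The medians were then 0.47 for the 100 genes and 0.41 for all genes, and an SD over 1 was left for 2 of the 100, sls with 1.53 and GB51653 with 1.47. At these depths counting error was far below these SDs.

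**Figure D4:**
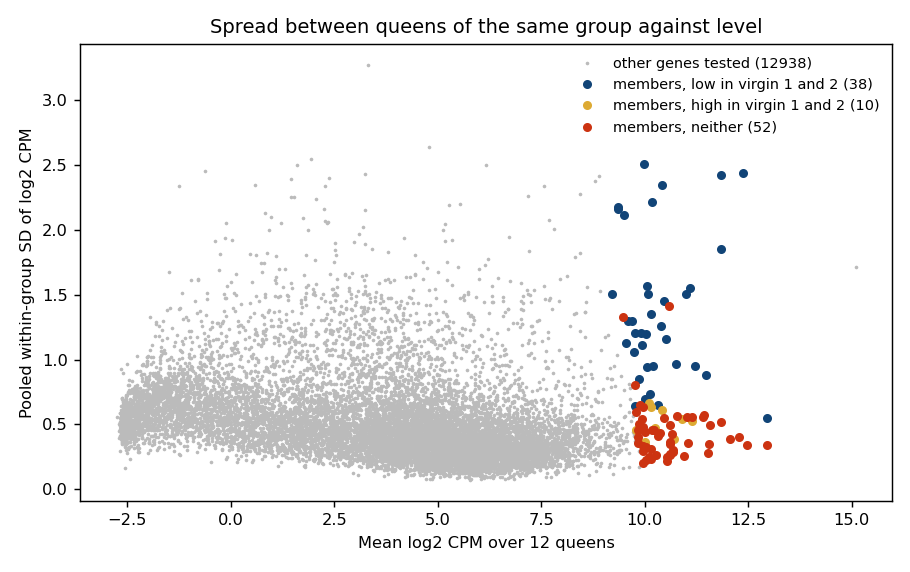
Pooled within-group SD of log2 CPM against mean log2 CPM over 12 queens for the 100 genes (large points) and the other 12938 genes tested (small points), of which the one at the far right is GB49544. Members low in virgin queens 1 and 2 (38) fill the range above an SD of 0.5, and those with no such pattern (52) lie mostly below 0.7.

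The widest spread was found for GB49878, GB43571, Cyp6a13, GB45278 and CG6178, with SDs of 2.51, 2.44, 2.42, 2.35 and 2.22. All 5 were more than 4-fold low in virgin queens 1 and 2. GB49878 was at 0.00270% and 0.00514% in these queens, at 0.464% and 0.562% in virgin queens 4 and 6, at 0.0929%, 0.145%, 0.106% and 0.152% in mated queens 1, 4, 6 and 7 and at 0.161%, 0.277%, 0.541% and 0.277% in CO2-treated queens 1, 2, 5 and 7. Virgin queens thus held its lowest and its highest value. GB45278 was at 0.00459% and 0.00440% in virgin queens 1 and 2 and between 0.182% and 0.510% in the other 10. Of the 15 genes in this class 7 had a name, namely Cyp6a13, CG6178, Ugt86Dd, CG6414, CG32250, Aldh and CG17323. The others were GB43571, GB49878, GB45278, GB40635, GB53578, GB55452, GB42146 and GB49347.

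The 10 genes that were higher in virgin queens 1 and 2 than in all others were GB52467, GB52643, GB53968, GB45951, GB49543, GB52466, GB47148, GB54446, GB46318 and GB48904, and none had a name. GB52467, the highest of them, was at 0.495% and 0.577% in these queens and between 0.118% and 0.333% in the other 10. Their summed share was 3.08% and 3.44% in virgin queens 1 and 2 and between 0.827% and 2.04% elsewhere.

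Some marker genes of other tissues moved with this pattern and others did not. In virgin queens 1 and 2 the 6 photoreceptor markers, none of which is among the 100, summed to 602 to 1015 per 1e+06 counts, against 166 to 234 in virgin queens 4 and 6, 62.1 to 210 in mated queens and 91.8 to 224 in CO2-treated queens. The fat body markers summed to 3135 to 6179 in virgin queens 1 and 2 and 6509 to 9050 in virgin queens 4 and 6, the hemocyte markers to 415 to 438 and 720 to 1582, and the basement membrane markers LanA and LanB2 to 430 to 465 and 813 to 1100. Single markers differed within a list. The photoreceptor marker Cpn was at 14.0 and 1.63 per 1e+06 counts in virgin queens 1 and 2 and at 2.92 and 43.2 in virgin queens 4 and 6. The other photoreceptor markers were each higher in both virgin queens 1 and 2 than in any other queen. Fat-spondin was at 108 and 114 per 1e+06 counts in virgin queens 1 and 2 and at 617 and 667 in virgin queens 4 and 6, and LanA at 167 and 130 against 765 and 567. In contrast LanB2 was at 297 and 299.5 against 335 and 246, and the Lsp2 gene GB51697 at 32.1 and 26.6 against 18.8 and 15.1. RfaBp, which makes up most of the fat body sum, was at 6014 and 2947 in virgin queens 1 and 2 and at 8356 and 5765 in virgin queens 4 and 6. In normalized log2 CPM RfaBp was at 12.19 and 11.07 in virgin queens 1 and 2. Every other queen was higher, the lowest of them being virgin queen 6 at 12.36. Hml makes up most of the hemocyte sum. The muscle markers summed to 1015 to 1389 in virgin queens 1 and 2, near the lowest sums of the mated and of the CO2-treated queens. Basement membrane markers summed to 1651 to 3909 in mated and 830 to 1374 in CO2-treated queens. No marker of these lists was at 0 in a queen. Their part in the shares was not tested. Markers of neurons and glia could not be matched to the identifiers and were not analysed here.

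**Figure D5:**
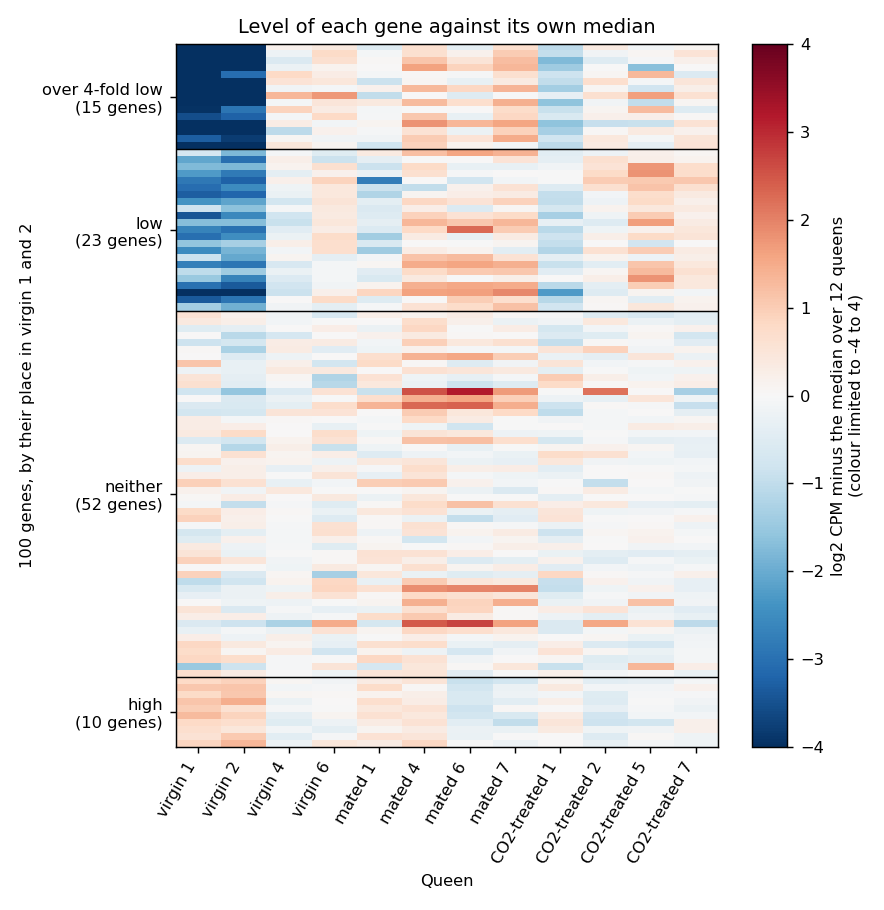
Log2 CPM of each of the 100 genes (rows) in each queen (columns) minus the median of the gene over the 12 queens, with colour limited to -4 to 4. Rows are grouped by their place in virgin queens 1 and 2, and the 15 rows at the top are dark blue in these 2 columns alone.

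The smallest spread was found for GB49106, GB46565, GB52736, GB47100 and GB45707, with SDs between 0.20 and 0.25. GB49106 was at 1004 ± 196 CPM in virgin, 1050 ± 104 CPM in mated and 945 ± 94.9 CPM in CO2-treated queens (n = 4 each). GB46565 was at 1657 ± 213, 1521 ± 309 and 1352 ± 163 CPM, and GB47100 at 1096 ± 271, 1228 ± 99.2 and 1149 ± 130 CPM in the same order. The log2 fold changes of these 5 genes lay between -0.29 and 0.50 in the 3 comparisons, and none passed the threshold. Even these genes were not unusually steady, since 6.92% of all genes tested had a smaller SD than GB49106.

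Some of the 100 genes kept a near constant ratio across queens. Over all 4950 pairs, the median SD of the log2 ratio of shares over the 12 queens was 1.103, and 7 pairs had an SD under 0.15. The closest pair was GB52829 with GB48505, with an SD of 0.04. GB55452 and GB42146 followed with 0.06, and their ratio stayed between 0.496 and 0.564 although the share of GB55452 ranged from 0.0220% to 0.775%. GB45377 and GB51371 had an SD of 0.07, and GB40759 and GB40758, with adjacent identifiers, 0.10. The hemocyte-related pair GB50508 and GB48687 had an SD of 0.15. These values describe pairs taken from the same 12 libraries, and whether reads of near-identical copies were split within a pair was not tested.

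Of the 100 genes, 12 had an identifier next to that of another, in 6 pairs. The members of a pair did not always vary alike. GB43571 and GB43572 were both low in virgin queens 1 and 2, the first more than 4-fold, and so were GB50481 and GB50482. GB52466 and GB52467 were both high there. GB55452 was more than 4-fold low while GB55451 was not below all other queens, and the pairs GB40758 with GB40759 and GB46564 with GB46565 showed neither pattern. GB49543, whose number is next to that of the left-out gene GB49544, was among the genes high in virgin queens 1 and 2.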

How the data were processed

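RNA of 12 queen brains was sequenced by the authors as 50-base single reads, which went through Trimmomatic for trimming and SortMeRna to remove ribosomal RNA. TopHat placed the rest on Amel 4.5, and SAMtools idxstats gave the counts (tool versions are not given in the sources used here). The deposited table holds raw counts of 15314 genes, without normalization by the authors. A second deposited table, of standardized values made from the same counts, was not used. Counting without a stated rule for near-identical copies can split or double reads between them.

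Shares were computed after leaving out GB49544, and the 100 genes of highest mean share were kept. Counts were then tested with edgeR 4.0.16 in R 4.3.3 (TMM, quasi-likelihood F test on 12 queens in 3 groups, 13038 genes with a sum of at least 10 counts, Benjamini-Hochberg adjustment over all of them, threshold 0.05, 9 residual and 4.25 prior degrees of freedom). A standard error is the size of a log2 fold change over the root of its F statistic. Log2 CPM used a prior count of 2. The detection floor of 3 counts was 0.145 to 0.241 CPM per queen. The code was tested on simulated data. Alternatives were DESeq2 1.42.0, exact tests with tagwise or common dispersion, a robust fit, other scalings and filters, a fit to 2 groups, a replicate block, other sizes of the gene group, and each queen left out. Leaving out virgin queens 1 and 2 together and using the suffix br of 4 sample titles as a covariate were chosen after seeing the data. The authors ran the libraries on 2 lanes, and which queens shared a lane is not given. Figures were drawn with matplotlib 3.10.9 and tables made with pandas 2.3.3 under Python 3.11.15.

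The genes and lists were chosen with earlier results of these data known. Genes named are the 10 highest, those past the threshold without overlap, the 5 of widest and of smallest spread, those at the border, and up to 4 of each keyword list. Other genes named were chosen after their values were seen. Ortholog names come from the study's gene lists, and RefSeq symbols from the assembly Amel_HAv3.1.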

Additional observations from a re-analysis of the deposited data

Results flagged for a closer look

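Within groups of 4 queens, the highest or lowest queen was set against the rest for 36 genes and sums in 108 groups, and a single queen lay far from the other 3 in 3 of them, where chance gives about 1 in 20. PebIII (GB52324) was at 0.237% of the counts in virgin queen 6 and at 0.113% to 0.120% in the other virgin queens. The value in virgin queen 6 was still below those of all mated queens. nahoda (GB51174) was at 0.407% in CO2-treated queen 5 and at 0.138% to 0.167% in the other CO2-treated queens. CG13214 (GB43112) was at 0.282% in mated queen 4 and at 0.182% to 0.191% in the other mated queens.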

How the results depend on the processing

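The sign of the median log2 fold change of the 100 genes turned negative with total counts (-0.35 for mated against virgin, -0.32 against CO2-treated) and without virgin queens 1 and 2 (-0.03 for CO2-treated against virgin). No alternative run turned the direction of PebIII or CG11314. Of the 100 genes, 1 passed for mated against virgin queens and 0 did with a fit to 2 groups or without virgin queens 1 and 2, 3 with a robust fit, 5 with the replicate block, 7 with the title suffix as a covariate, 12 with the tagwise exact test, 15 with DESeq2, 26 with the common-dispersion exact test and 13 with total counts (4 higher and 9 lower in mated queens). Over all genes 157 passed in the main fit, 45 with 2 groups and 2 without virgin queens 1 and 2. The robust fit gave 160, the replicate block 177 and the suffix covariate 255 over all genes. The tagwise exact test gave 505, DESeq2 640, the common-dispersion exact test 829 and total counts 4398. Against CO2-treated queens, 2 of the 100 passed and 0 did with total counts or the replicate block, 1 with 10 counts in every library or the suffix covariate, 5 with the tagwise exact test, 8 with DESeq2 and 15 with the common-dispersion exact test (14 higher and 1 lower). Over all genes 86 passed in the main fit, 97 with total counts and 10 with the replicate block. It was 62 with 10 counts in every library and 78 with the suffix covariate. The tagwise exact test gave 294 over all genes, DESeq2 421 and the common-dispersion exact test 627. Of the 100 genes, CO2-treated against virgin queens gave 0 in each setting but the common-dispersion exact test (4, where 151 of all genes passed). Any difference passed for 2, where 1.14% of all genes did, and for 12 with DESeq2 and 1 with the replicate block, total counts or without virgin queens 1 and 2. Shares over all genes in these other settings of the any-difference test are not given, so nothing is read from them. Taking 200 genes gave 4, 4 and 5 (mated against virgin, against CO2-treated, any difference), where 1.20%, 0.660% and 1.14% of all genes passed. For the last 2 comparisons, 50 genes, the highest 100 by median share and the genes highest in each group gave 1. The 100 highest of virgin queens gave 2 and 1 in the first 2 comparisons. Summed shares were 14.9%, 19.2% and 17.3% for 50 genes and 28.3%, 35.2% and 31.5% for 200 in virgin, mated and CO2-treated queens, and 19.3% in mated queens with GB49544 kept. The groups shared 26 of their 50 highest and 143 of their 200 highest genes. The median spread was 0.466 without virgin queens 1 and 2. Leaving out each queen gave 0 to 4 calls for mated against virgin, 0 to 2 against CO2-treated, 0 to 0 for CO2-treated against virgin and 0 to 2 for any difference. The shares of all genes that passed in these fits are not given, so nothing is read from these calls. With each queen left out, the summed shares were 18.6% to 22.8%, 25.02% to 27.6% and 23.2% to 23.7%, with 55 to 68 shared genes and a spread of 0.519 to 0.584. Why the tests differ was not tested. Queen numbers mark different animals, and whether same-numbered queens were handled together was not tested. Of 7 same-numbered pairs 3 had a correlation of deviations over 0.1 (-0.284 to 0.514). The mean correlation was 0.173 in the same-numbered pairs and -0.0286 in the other pairs. The replicate block left 4 residual degrees of freedom.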
